A study of Mus musculus with 43 samples.

Results

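The tissue inhibitors of metalloproteinases, Timp1, Timp2, Timp3 and Timp4, were followed in mouse lung during house dust mite (HDM) exposure and under an antibody against interleukin-33 (IL-33). The members were chosen by gene symbol, matched to Entrez identifiers, and all 4 of them were found among the 24475 gene identifiers of the count table. All 4 also passed the filter on low counts, which kept 15598 genes. Timp1 RNA was higher after 4 and 15 weeks of HDM than after saline, and lower under anti-IL-33 than under the isotype antibody. Timp3 RNA moved the other way in both settings, though its call against isotype was lost in 7 of 13 alternative fits. Timp2 was lower than after saline by a smaller amount, and no difference was detected for Timp4.

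The 4 genes encode small secreted proteins that bind the active site of metalloproteinases and block it, which sets how fast collagen, elastin and other matrix proteins are degraded and how fast membrane proteins are shed. Timp1 is the inducible member, raised by cytokines such as interleukin-6, oncostatin M and interleukin-1, and is a long-used marker of tissue injury and fibrosis. Timp2 is mostly constitutive and, besides blocking proteinases, helps the membrane-type enzyme Mmp14 to activate the Mmp2 precursor. Timp3 is the member that stays bound to the matrix and also blocks the ADAM and ADAMTS proteinases, including Adam17, the sheddase of tumour necrosis factor, while Timp4 is best known from the heart.

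The study sequenced polyadenylated RNA of mouse lung, with a strand-specific library kit, in 43 libraries of 5 groups. In the anti-IL-33 group (n = 15) mice were exposed to HDM for 15 weeks and received the antibody, and in the isotype group (n = 4) they had the same exposure with a control antibody. The 15-week HDM group (n = 7) and the 4-week HDM group (n = 10) received no antibody, and the saline group (n = 7) received saline in place of HDM. All mice, controls included, carried the genotype Il33hu/hu on a mixed background of C57BL/6NTac and 129S6SvEvTac, so no other Il33 genotype is there for comparison. The labels give neither ages nor a time point for the saline mice, so exposure and age cannot be told apart in comparisons with saline. Ages are not given for the HDM mice either, so the same holds for length of exposure between 15 and 4 weeks. The comparisons with saline all use the same 7 saline libraries.

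Library totals were between 4.8 and 12.6 M counts. Replicate 1 of 15 weeks and replicate 3 of 4 weeks stood apart from their groups, with a root mean square distance of 0.91 and 0.812 on the log2 scale from the median of the others. The other 41 libraries lay between 0.247 and 0.577. Summed levels of 8 lung epithelial markers were between 17571 and 51159 CPM in all libraries, as the tissue label says. The sample numbers in the labels fall into 2 separate ranges, with 22 and 21 libraries, each group has libraries in both, and what the ranges stand for is not given. The range was therefore a term in each fit, and values within each range are given where they differ. Levels are counts per M counts (CPM), and differences between groups are log2 fold changes ± standard error from edgeR's quasi-likelihood test with Benjamini-Hochberg adjustment over the 15598 genes, called at an adjusted p under 0.05. Each library has its own sample number, and the labels say no more on how separate the mice were, so p-values measure the spread between these libraries. In RNA of a whole tissue, fewer cells of a type and less RNA per cell cannot be told apart.

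In the GRCm38 build with GENCODE M21, Timp1 (Entrez 21857) is on the plus strand of chromosome X from 20870166 to 20874735, with 0.888 kb of exons. Timp2 (Entrez 21858) is on the minus strand of chromosome 11 from 118301069 to 118355740, with 3.9 kb of exons. Timp3 (Entrez 21859) is on the plus strand of chromosome 10 from 86300372 to 86349506, with 8.14 kb of exons. Timp4 (Entrez 110595) is on the minus strand of chromosome 6 from 115241892 to 115252205, with 5.89 kb of exons. Timp1, Timp3 and Timp4 each lie inside a synapsin gene (Syn1, Syn3 and Syn2 in this order) that is read from the opposite strand. The shared exonic stretch is 0 bases for Timp1, 1733 bases for Timp3 and 90 bases for Timp4.

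The sequences just before the starts of Timp1 and Timp3 are shown because these are the members that moved furthest and in opposite directions. They are RefSeq sequences in the GRCm38.p6 build, 5′ to 3′ on the plus strand, at chrX:20869916-20870165 for Timp1 and at chr10:86300162-86300371 for Timp3. Capitals mark the ETS motif AGGAAG and the GC box GGGCGG, the second read on the other strand in Timp1. The GC boxes of Timp3 lie past the end of the printed stretch, which stops just before the GENCODE start. Counted from the RefSeq start used in the motif search, they begin at -15 and 14. One more stretch, chrX:20870190-20870215, is in the first exon of Timp1 and holds an AP-1 variant, TGAGTAA, beside another ETS motif, both in capitals.

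Timp1 upstream: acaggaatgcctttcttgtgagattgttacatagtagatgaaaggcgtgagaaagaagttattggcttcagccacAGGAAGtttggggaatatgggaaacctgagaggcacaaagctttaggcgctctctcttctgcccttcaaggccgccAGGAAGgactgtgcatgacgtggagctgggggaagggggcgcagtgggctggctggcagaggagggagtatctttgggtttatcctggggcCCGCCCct
Timp1 first exon: gaTGAGTAAtgcgtccAGGAAGcctg
Timp3 upstream: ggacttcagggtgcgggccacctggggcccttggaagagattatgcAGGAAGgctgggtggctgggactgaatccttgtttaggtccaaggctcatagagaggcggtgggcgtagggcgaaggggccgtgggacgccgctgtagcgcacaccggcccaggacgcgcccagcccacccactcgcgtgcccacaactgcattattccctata

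Motifs were searched on both strands in windows of 250 bases before to 50 bases after each RefSeq start. TGAGTAA was found once in the Timp1 window and in none of the other 3 members, and 2.68% of the 32851 windows of the same kind hold it. AGGAAG was found 3 times for Timp1 and once each for Timp3 and Timp4, with 35.4% of all windows holding it. GGGCGG was found once each for Timp1 and Timp2 and 2 times for Timp3, against 35.7% of all windows. The AP-1 consensus TGANTCA (7.81% of windows), the STAT motif TTCNNNGAA (8.3%) and the TATA box TATAAA (13.6%) were in none of the 4 windows. The motifs share no bases with each other in these windows. They are matches of letters, and no binding was measured.

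Because a longer gene yields more counts for the same number of transcripts, the 4 members were compared with each other only as CPM per kb of exons. The length used merges the exons of all annotated transcripts of a gene. Where the transcripts present in lung are shorter than this, the level per kb is too low. On this scale the saline lung held Timp2 and Timp3 at about the same level, with medians of 136 and 127 CPM per kb and ranges that overlapped. Before division by length the medians were 530 and 1030 CPM, so this likeness depends on the exon lengths used. Timp1 had a median of 4.01 and Timp4 of 0.257 CPM per kb in saline lungs. The ranges of these 2 members did not overlap with each other or with the first pair.

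**Figure D1:**
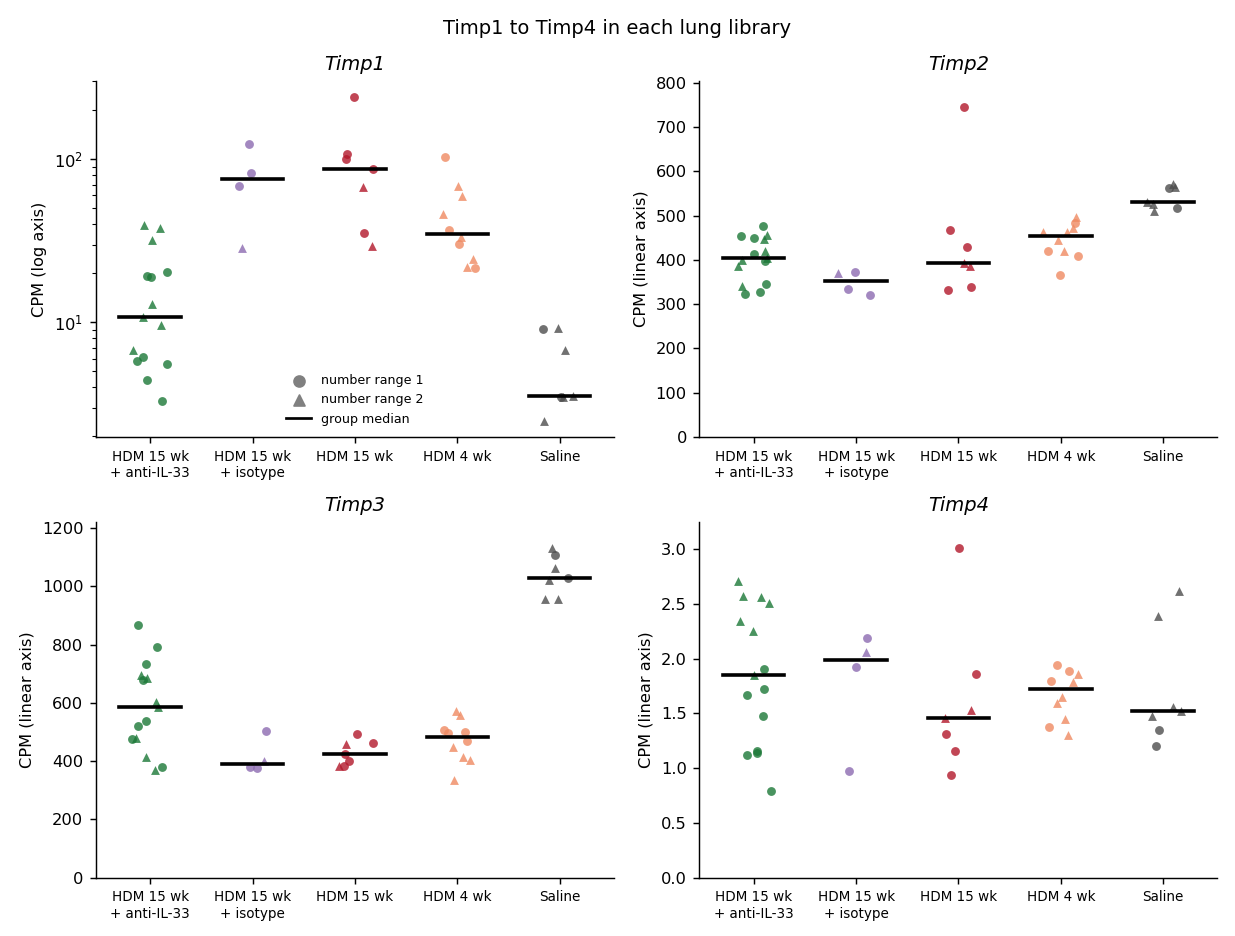
CPM of Timp1, Timp2, Timp3 and Timp4 (4 panels) in every library, by group, with a line at each group's median. Circles and triangles are libraries of sample number range 1 and 2. The Timp1 median is 10.8 CPM under anti-IL-33, 87.3 CPM at 15 weeks of HDM and 3.56 CPM after saline, and Timp3 is highest after saline.

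Timp1 was the member that changed most with exposure. After 15 weeks of HDM it had between 29.2 and 240 CPM with a median of 87.3 CPM, and after 4 weeks between 21.4 and 103 CPM with a median of 35 CPM. After saline it had between 2.49 and 9.26 CPM with a median of 3.56 CPM. All 10 libraries of 4 weeks and all 7 of 15 weeks lay above every saline library. The means were 44.6 ± 26.1 CPM at 4 weeks, 95.5 ± 70.5 CPM at 15 weeks and 5.44 ± 2.86 CPM after saline (SD, n = 10, 7 and 7).

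The fitted difference of Timp1 from saline was 3.04 ± 0.53 at 4 weeks (edgeR adjusted p = 9.24e-06) and 4.16 ± 0.58 at 15 weeks (adjusted p = 1.89e-07), on the log2 scale. With the libraries of number range 1 alone these were 2.94 and 4.19, and with range 2 alone 3.07 and 3.26. In the comparison of 4 weeks with saline 56.8% of all tested genes were called, 29.3% as higher, and 20% had groups that did not overlap. In that of 15 weeks with saline these shares were 59.2%, 31.2% and 28.6%. Being called or not overlapping was thus common among all genes. The fitted differences of Timp1 lay above the upper 5% of all tested genes, which began at 1.41 at 4 weeks and at 1.63 at 15 weeks.

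Between the times, Timp1 was higher at 15 weeks than at 4 weeks by 1.12 ± 0.46, which did not pass the threshold (edgeR adjusted p = 0.0727). Of the 7 libraries at 15 weeks, 2 lay above every library of 4 weeks and 6 lay above the 4-week median. In this comparison 21.4% of tested genes were called, 12.3% as higher and 9.08% as lower. Without the 2 libraries replicate 1 of 15 weeks and replicate 3 of 4 weeks the difference was 1.41 (adjusted p = 0.0383), and within number range 2 it was 0.18.

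Under anti-IL-33, Timp1 fell against both 15-week groups. It had between 3.29 and 39.3 CPM with a median of 10.8 CPM in the 15 anti-IL-33 libraries, against 82.7, 68.5, 124 and 28.7 CPM in the 4 isotype libraries. Of the anti-IL-33 libraries, 12 of 15 lay below the lowest isotype library and all 15 below the isotype median. The groups averaged 15.6 ± 12.2 CPM under anti-IL-33 and 76 ± 39.4 CPM under the isotype antibody (SD, n = 15 and 4), a ratio of means of 0.205. The fitted difference was -2.29 ± 0.49 (edgeR adjusted p = 0.00687), in a comparison that called 6.71% of tested genes, 3.58% as higher and 3.14% as lower. Against 15 weeks of HDM with no antibody it was -2.63 ± 0.43 (adjusted p = 5.89e-05), where 35.8% of genes were called, 15.9% as higher and 19.9% as lower.

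The lower Timp1 under anti-IL-33 was not the same in both number ranges. In range 1 the 8 anti-IL-33 libraries had between 3.29 and 20.4 CPM, and in range 2 the 7 libraries had between 6.79 and 39.3 CPM. The difference from isotype was -3.14 in range 1, with 8 libraries against 3, and -0.44 in range 2, with 7 against 1 (edgeR adjusted p = 0.00435 and 0.9). Against 15 weeks of HDM it was -3.46 in range 1 and -1.19 in range 2 (adjusted p = 0.000378 and 0.461). The difference between the ranges, tested as an interaction, was -2.71 for the isotype comparison (p = 0.0291, adjusted p = 1) and -2.28 for the other (p = 0.0139, adjusted p = 0.484), so neither passed the adjustment. Without isotype replicate 3, the highest of the 4, the isotype comparison gave -1.96 and lost its call (adjusted p = 0.0831).

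Timp1 stayed above saline under anti-IL-33. Of the 15 anti-IL-33 libraries, 9 lay above every saline library and 14 above the saline median. The groups averaged 15.6 CPM under anti-IL-33 and 5.44 CPM after saline, and the fitted difference was 1.54 ± 0.49 (edgeR adjusted p = 0.0118), in a comparison that called 38.6% of genes, 20% as higher and 18.5% as lower. It was 0.73 within number range 1 (adjusted p = 0.718) and 2.07 within range 2 (adjusted p = 0.0043), and limma-voom gave 1.29 (adjusted p = 0.0593).

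Timp3, the matrix-bound member, was lower after both HDM exposures. At 15 weeks it had between 382 and 493 CPM with a median of 424 CPM, and at 4 weeks between 335 and 571 CPM with a median of 484 CPM. After saline it had between 956 and 1131 CPM with a median of 1030 CPM. All 7 libraries of 15 weeks and all 10 of 4 weeks lay below the lowest saline library, and the saline libraries themselves differed little. Groups did not overlap for 28.6% of all tested genes at 15 weeks and for 20% at 4 weeks. The means were 470 ± 72.4 CPM at 4 weeks, 429 ± 43.4 CPM at 15 weeks and 1038 ± 68.2 CPM after saline (SD, n = 10, 7 and 7).

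On the log2 scale the difference of Timp3 from saline was -1.16 ± 0.13 at 4 weeks (edgeR adjusted p = 3.11e-09) and -1.33 ± 0.15 at 15 weeks (adjusted p = 1.95e-09). Among all tested genes 27.5% were called lower at 4 weeks and 28.1% at 15 weeks. The lowest 5% of all genes ended at -1.01 at 4 weeks and at -1.34 at 15 weeks, so Timp3 lay near that end in both. Within number ranges 1 and 2 the values were -1.10 and -1.16 at 4 weeks, and -1.30 and -1.27 at 15 weeks. From 4 to 15 weeks the difference of Timp3 was -0.17 ± 0.13 (adjusted p = 0.378), and the groups overlapped.

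Anti-IL-33 went with higher Timp3 than either 15-week group. The 15 anti-IL-33 libraries had between 370 and 868 CPM with a median of 587 CPM, against 380, 504, 378 and 401 CPM in the isotype libraries. Of the 15, 10 lay above every isotype library and 10 above every library of 15 weeks of HDM, while 1 lay below every isotype library and 2 below every 15-week library. The groups averaged 588 ± 152 CPM under anti-IL-33 and 416 ± 59.8 CPM under the isotype antibody (SD, n = 15 and 4). The fitted difference was 0.52 ± 0.16 against isotype (edgeR adjusted p = 0.0387) and 0.48 ± 0.12 against 15 weeks of HDM (adjusted p = 0.00396). Of all tested genes, 3.58% and 15.9% were called higher in these comparisons, in this order.

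The Timp3 call against isotype was close to the threshold. It was lost without isotype replicate 1, 3 or 4 (edgeR adjusted p = 0.187, 0.167 and 0.0696), and within number range 1 (0.56, adjusted p = 0.125) and range 2 (0.44, adjusted p = 0.801). With no low-count filter, or with the 2 groups fitted alone, the adjusted p was 0.0516 and 0.0521. The call against 15 weeks of HDM held in range 1 (0.53, adjusted p = 0.0275) and not in range 2 (0.37, adjusted p = 0.523). All 15 anti-IL-33 libraries remained below the lowest saline library, with a log2 difference of -0.85 ± 0.12 (adjusted p = 4.5e-07), in a comparison where 9.86% of genes had groups that did not overlap.

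**Figure D2:**
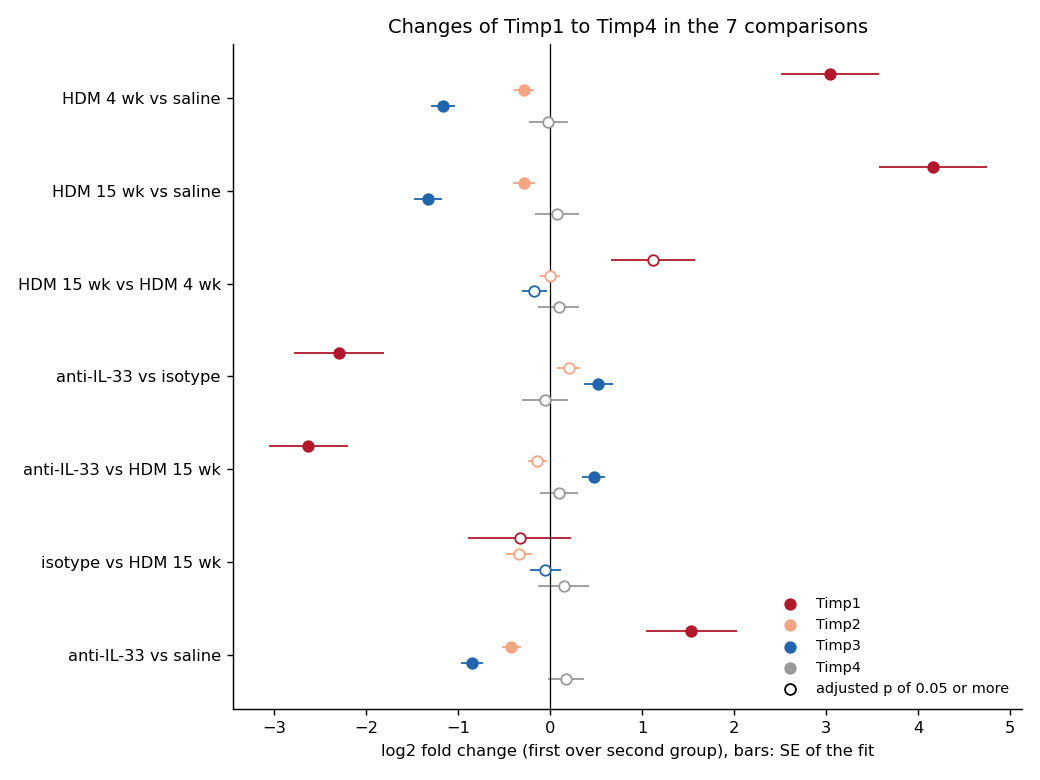
Fitted log2 fold changes with their standard errors from edgeR for the 4 members in the 7 comparisons. Timp1 lies at 3.04 and 4.16 for HDM against saline and at -2.29 for anti-IL-33 against isotype, and Timp3 lies on the other side of 0 each time, at -1.16, -1.33 and 0.52.

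Timp2, the constitutive member, was lower than saline by a smaller step. At 4 weeks it had between 365 and 497 CPM with a median of 453 CPM, against between 511 and 572 CPM with a median of 530 CPM after saline. All 10 libraries of 4 weeks lay below every saline library, in a comparison where 20% of all tested genes had groups that did not overlap. The fitted difference was -0.28 ± 0.11 (edgeR adjusted p = 0.0232), where 27.5% of all genes were called lower. Within number range 1, with 4 libraries against 2, it was -0.35 and not called (adjusted p = 0.333). The 15-week libraries had 744, 428, 339, 468, 331, 393 and 385 CPM. One of these, replicate 1, was above every saline library, and the other 6 were below every saline library. Of all tested genes, 28.1% were called lower at 15 weeks than after saline. The difference at 15 weeks was -0.28 ± 0.12 (adjusted p = 0.0424), and -0.45 without replicate 1 of 15 weeks and replicate 3 of 4 weeks (adjusted p = 2.21e-05). This call was lost within number range 1 (-0.22, adjusted p = 0.509), with no low-count filter (adjusted p = 0.0737) and with the 2 groups fitted alone (adjusted p = 0.12).

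Under anti-IL-33 Timp2 did not move back towards saline in a way the test could call. It had between 323 and 476 CPM with a median of 405 CPM in the anti-IL-33 libraries, against 321, 373, 333 and 370 CPM in the isotype libraries. Of the 15, 11 lay above every isotype library, and the difference was 0.20 ± 0.13 (edgeR adjusted p = 0.284). Against 15 weeks of HDM it was -0.14 ± 0.10 (adjusted p = 0.288). All 15 anti-IL-33 libraries lay below every saline library, with a log2 difference of -0.42 ± 0.10 (adjusted p = 0.000865), a call that was lost within number range 1 (adjusted p = 0.305). In that comparison over all libraries, 18.5% of all genes were called lower and 9.86% had groups that did not overlap.

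Timp4 was close to the lower limit of what these libraries can measure, with between 6 and 31 counts per library. Its median was 1.85 CPM under anti-IL-33, 1.99 CPM under the isotype antibody, 1.46 CPM at 15 weeks, 1.72 CPM at 4 weeks and 1.52 CPM after saline, and all groups overlapped. The fitted differences from saline were -0.02 ± 0.21 at 4 weeks, 0.08 ± 0.24 at 15 weeks and 0.17 ± 0.20 under anti-IL-33, with edgeR adjusted p-values of 0.952, 0.859 and 0.523. At these standard errors a change of the size seen for Timp2 was not detectable in Timp4. Its values also split by number range, with 0.79 to 1.91 CPM in range 1 and 1.85 to 2.71 CPM in range 2 under anti-IL-33. Over all groups range 2 was higher by 0.38 (p = 0.00948, adjusted p = 0.118).

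The isotype antibody itself was compared with 15 weeks of HDM alone. The differences were -0.33 ± 0.56 for Timp1, -0.34 ± 0.14 for Timp2, -0.05 ± 0.17 for Timp3 and 0.15 ± 0.27 for Timp4, and none of the 4 was called (edgeR adjusted p = 0.945, 0.798, 0.981 and 0.95). In this comparison 0 of all tested genes were called by the main edgeR fit, 933 had an unadjusted p under 0.05, and DESeq2 called 8. Other edgeR settings called up to 11. The isotype group has 4 libraries, which limits what this comparison can detect.

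The balance between the members shifted accordingly. As a share of the summed CPM per kb of the 4 genes, Timp1 had a median of 5.97% under anti-IL-33, 37.3% under the isotype antibody, 34.3% at 15 weeks, 18.4% at 4 weeks and 1.46% after saline. Timp3 had a median share of 38.4% under anti-IL-33, 23.7% under isotype, 21.1% at 15 weeks, 26.4% at 4 weeks and 46.6% after saline. Timp2 made up 53.3% under anti-IL-33, 38.9% under isotype, 44.5% at 15 weeks, 53% at 4 weeks and 50.8% after saline. Timp4 stayed under 0.3% in every library, its highest share being 0.27%. These shares depend on the exon lengths used.

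**Figure D3:**
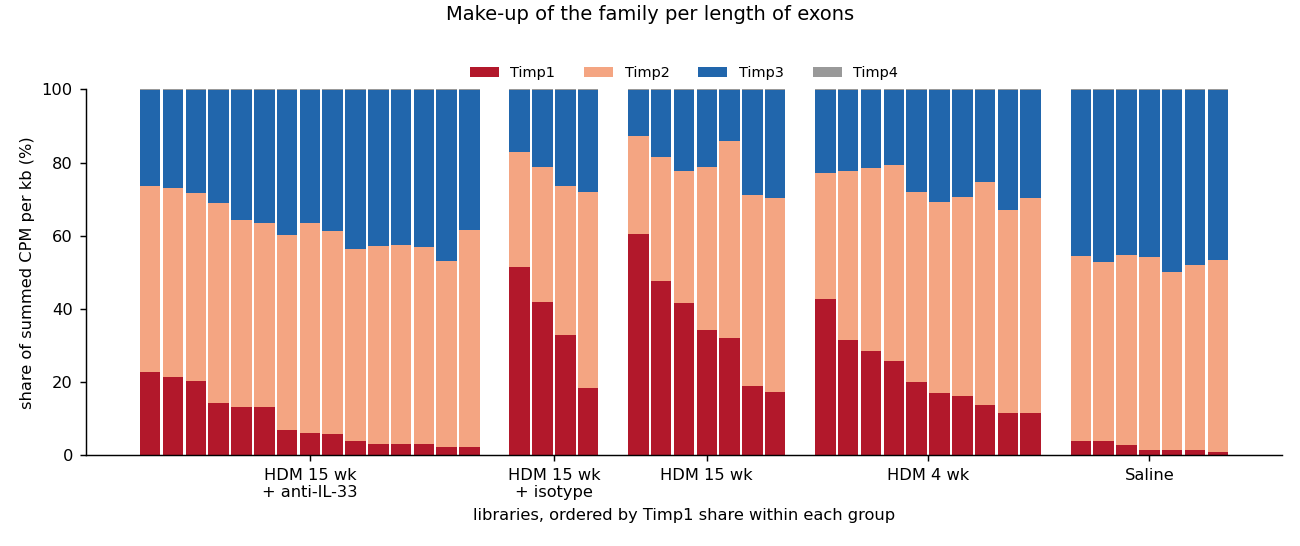
Share of each member in the summed CPM per kb of the 4 genes, in percent, as one stacked bar per library, ordered by group. Timp1 takes between 17.3% and 60.4% at 15 weeks of HDM, between 2.15% and 22.7% under anti-IL-33 and between 1% and 4.02% after saline, and Timp4 is too small to be seen.

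The ratio of Timp3 to Timp1 per kb put the 2 members of opposite direction into one number. Its size depends on the exon lengths used, while its order between libraries does not. Its median was 6.1 under anti-IL-33, with a range of 1.15 to 21.3, against 0.634 under the isotype antibody, with a range of 0.332 to 1.52. It was 0.529 at 15 weeks, 1.59 at 4 weeks and 31.3 after saline, where it lay between 11.3 and 46.5. The anti-IL-33 libraries thus overlapped with both the isotype and the saline libraries. The HDM and saline libraries did not overlap, which follows from the 2 members, since neither of them alone overlapped there.

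Within the anti-IL-33 group the same 2 members varied against each other from mouse to mouse. Over the 15 libraries log2(CPM + 0.5) of Timp1 and Timp3 had Pearson's r = -0.779 and Spearman's rho = -0.732 (permutation p = 0.00108 and 0.00288). Adjusted over the 24 pair-by-group relations computed, these were 0.013 and 0.0346. Without the 2 libraries farthest from the median of Timp1 r was -0.753, and it was -0.714 in number range 1 (n = 8) and -0.872 in range 2 (n = 7). Timp2 and Timp3 went together in the same libraries, with r = 0.808 and rho = 0.836 (permutation p = 0.00044 and 0.0004, adjusted 0.0106 and 0.0096). Without the 2 farthest libraries r was 0.772, and it was 0.942 in range 1 and 0.741 in range 2.

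Of the other relations, Timp1 with Timp2 after saline passed for Pearson's r and not for Spearman's rho. Over the 7 saline libraries r was -0.889 and rho -0.857 (exact permutation p = 0.00397 and 0.0238, adjusted 0.0317 and 0.19), and r was -0.75 without the 2 farthest. No value within number ranges was computed there, since range 1 holds 2 saline libraries and range 2 holds 5, under the minimum of 6 used for a correlation. No relation of Timp4 passed the adjustment in any group.

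**Figure D4:**
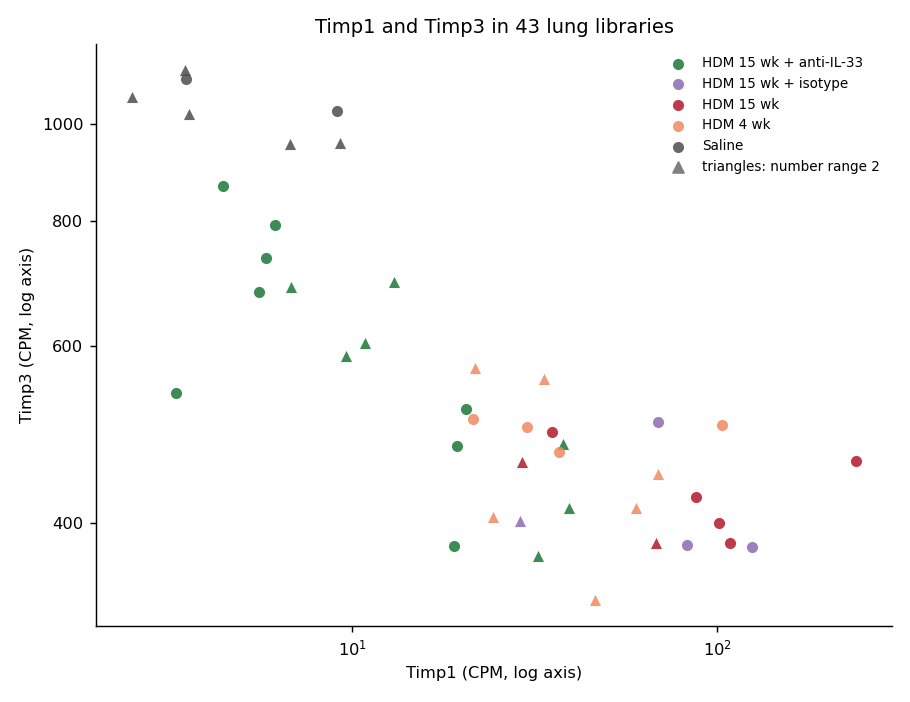
Timp3 against Timp1 in CPM, both on log axes, 1 point per library, with groups by colour and number range by marker shape. The anti-IL-33 libraries run between the HDM and isotype libraries, which lie at low Timp3 and high Timp1, and the saline libraries, which lie at high Timp3 and low Timp1.

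Markers of some cell types moved with Timp3. Of 8 alveolar fibroblast markers, 8 were lower than saline at 4 weeks, 8 at 15 weeks and 8 under anti-IL-33, where 27.5%, 28.1% and 18.5% of all tested genes were called lower. Between anti-IL-33 and isotype 5 of the 8 were higher, against 3.58% of all genes. Their summed level was between 1353 and 3405 CPM under anti-IL-33, 1254 and 1681 under isotype, 747 and 1708 at 15 weeks, 1536 and 2847 at 4 weeks, and 3707 and 4726 after saline. Across the 43 libraries, Timp3 had r = 0.915 with this sum on a log2 scale, r = 0.818 after removing group means, and r = 0.938 within the anti-IL-33 group. Of 8 endothelial markers, 5 were lower at 4 weeks, 7 at 15 weeks and 7 under anti-IL-33 than after saline, against the same shares of all genes. Their sum had r = 0.853 with Timp3, 0.787 after removing group means and 0.874 within the anti-IL-33 group. Between anti-IL-33 and isotype the endothelial markers did not follow Timp3. There 0 were called higher and 1 lower, against 3.58% and 3.14% of all genes, with a median log2 change of 0.03. Of 6 mesothelial markers, 5 were lower at 4 weeks, 5 at 15 weeks and 4 under anti-IL-33 than after saline, against the same shares. Their sum had r = 0.727 with Timp3, 0.372 after removing group means and 0.533 within the anti-IL-33 group. Within that group a relation with Timp3 was not particular to these cell types. There r was -0.887 for macrophage, -0.783 for neutrophil, 0.622 for smooth muscle, 0.592 for lung epithelial and 0.541 for cardiac muscle markers. It was 0.327 for adventitial fibroblast and -0.295 for fat markers. Over all libraries r was -0.73, -0.512, -0.0821, 0.229, 0.599, 0.0895 and -0.358 in the same order. These are descriptions over libraries that share depth and cell makeup, and the part of these cells in the Timp3 result was not tested.

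Myeloid markers moved with Timp1 in some comparisons and not in others. Of 8 macrophage markers, 7 were higher than saline at 4 weeks, 7 at 15 weeks and 7 under anti-IL-33, where 29.3%, 31.2% and 20% of all genes were called higher. Their sum was between 6063 and 21484 CPM under anti-IL-33, 10841 and 12698 under isotype, 9584 and 15547 at 15 weeks, 5553 and 7395 at 4 weeks, and 2476 and 5146 after saline. None of the 8 was called between anti-IL-33 and isotype. Of 8 neutrophil markers, 3 were higher and 2 lower at 4 weeks than after saline, against 29.3% and 27.5% of all genes. Their median log2 change was -0.04 in that comparison, where Timp1 was higher. At 15 weeks 8 of the neutrophil markers were higher than after saline, against 31.2% of all genes. Under anti-IL-33 5 were lower than under isotype, where 3.14% of all genes were called lower. The neutrophil sum was between 110 and 266 CPM under anti-IL-33, 305 and 355 under isotype, 260 and 616 at 15 weeks, 167 and 465 at 4 weeks, and 131 and 254 after saline. Over all libraries Timp1 had r = 0.701 with the neutrophil sum, r = 0.496 with the macrophage sum and, further from 0 than either, r = -0.846 with the alveolar fibroblast sum. After removing group means these were 0.552, 0.388 and -0.644, and within the anti-IL-33 group 0.807, 0.701 and -0.667. In that group Timp1 also had r = -0.729 with the mesothelial sum and -0.668 with the adventitial fibroblast sum. Over all libraries those were -0.653 and 0.0231. The part of these cells in the Timp1 result was not tested.

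The genes most like each member over all 43 libraries were ranked by Pearson's r of log2(CPM + 0.5) among the 14817 genes that averaged 1 CPM or more. For Timp1 they were Fgf23 (r = 0.945), Atf3 (0.928), Artn (0.927), Ptges (0.921) and Il1rn (0.919). Fgf23 is a phosphate-regulating hormone, Atf3 a stress-induced transcription factor, Artn a neurotrophic factor, Ptges the inducible prostaglandin E synthase and Il1rn the interleukin-1 receptor antagonist. After removal of group means the closest genes to Timp1 were Cstb (0.859), Esd (0.843), Cd63 (0.840), Cxcl2 (0.828) and Ccl3 (0.825). Cd63 is the tetraspanin that serves as a cell-surface receptor of Timp1, and Cxcl2 and Ccl3 are chemokines of neutrophils and monocytes.

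Timp3 was most like Grk5 (r = 0.960), Ctnna1 (0.960), Crim1 (0.953), Reck (0.951) and Emp2 (0.950). Reck is itself a membrane-anchored inhibitor of metalloproteinases. After removal of group means the first 5 were Emp2 (0.876), Ctnna1 (0.875), Raver2 (0.873), Nckap5 (0.872) and Grk5 (0.853). Timp2 was most like 2310022B05Rik (r = 0.944), Lamb2 (0.938), a laminin chain, Zyx (0.929), a focal adhesion protein, Itprip (0.915) and Slc44a2 (0.894). Timp4 reached lower values, with Bphl first at r = 0.683. These values describe 43 libraries that share group, depth and cell makeup, and genes in a pattern common to many genes will score high.

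Of 20 matrix metalloproteinases listed, the main targets of the inhibitors, 16 were tested. At 4 weeks 8 of the 16 rose and 5 fell against saline, which is 50% and 31.2%, against 29.3% and 27.5% of all tested genes. At 15 weeks 9 rose and 3 fell, which is 56.2% and 18.8%, against 31.2% and 28.1% of all genes. The share that fell was thus close to or under that over all genes. Mmp12, the macrophage elastase, averaged 1126 ± 669 CPM at 4 weeks, 635 ± 411 CPM at 15 weeks and 14 ± 9.7 CPM after saline. Its differences from saline were 6.38 ± 0.72 at 4 weeks and 5.77 ± 0.73 at 15 weeks. Mmp19 rose by 3.08 ± 0.36 and 3.71 ± 0.39, and Mmp14, the membrane-type enzyme that works with Timp2, by 1.27 ± 0.17 and 1.67 ± 0.19. The list's median log2 change was 0.28 at 4 weeks and 0.78 at 15 weeks, with 0.01 over all tested genes in both. Within number range 1 the counts were smaller, with 5 higher and 0 lower at 4 weeks and 6 higher and 0 lower at 15 weeks.

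Under anti-IL-33 5 of the 16 fell against isotype and none rose, where 3.14% and 3.58% of all genes did. On the log2 scale Mmp12 changed by -2.51 ± 0.58, Mmp13, a collagenase, by -2.05 ± 0.54, Mmp19 by -1.14 ± 0.35 and Mmp9, a gelatinase, by -0.80 ± 0.24 (edgeR adjusted p between 0.012 and 0.0442). Mmp12 averaged 127 ± 128 CPM under anti-IL-33 and 599 ± 414 CPM under isotype. Timp1 was thus lower in the same comparison as several enzymes of this list, which holds targets of the family and not of Timp1 in particular. Leaving out 1 isotype library at a time, the list had 1, 2, 0 and 3 genes called lower without replicates 1, 2, 3 and 4 in this order. Within number range 1 there were 3, and within range 2 there were 0.

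Timp3 also blocks several of the ADAM and ADAMTS proteinases. Of 18 tested, 8 rose and 4 fell at 4 weeks against saline, which is 44.4% and 22.2%, against 29.3% and 27.5% of all genes. At 15 weeks 7 rose and 4 fell, which is 38.9% and 22.2%, against 31.2% and 28.1% of all genes. Adam8 rose by 1.91 ± 0.19 and 1.72 ± 0.21, and Adamts4, an aggrecanase, by 1.63 ± 0.40 and 2.89 ± 0.44. Under anti-IL-33 1 of the 18, Adamts4, fell against isotype, by 1.26 ± 0.39 (edgeR adjusted p = 0.046), a call that was lost when any 1 isotype library was left out. The list's median log2 change was 0.24 at 4 weeks, 0.21 at 15 weeks and -0.01 for anti-IL-33 against isotype.

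**Figure D5:**
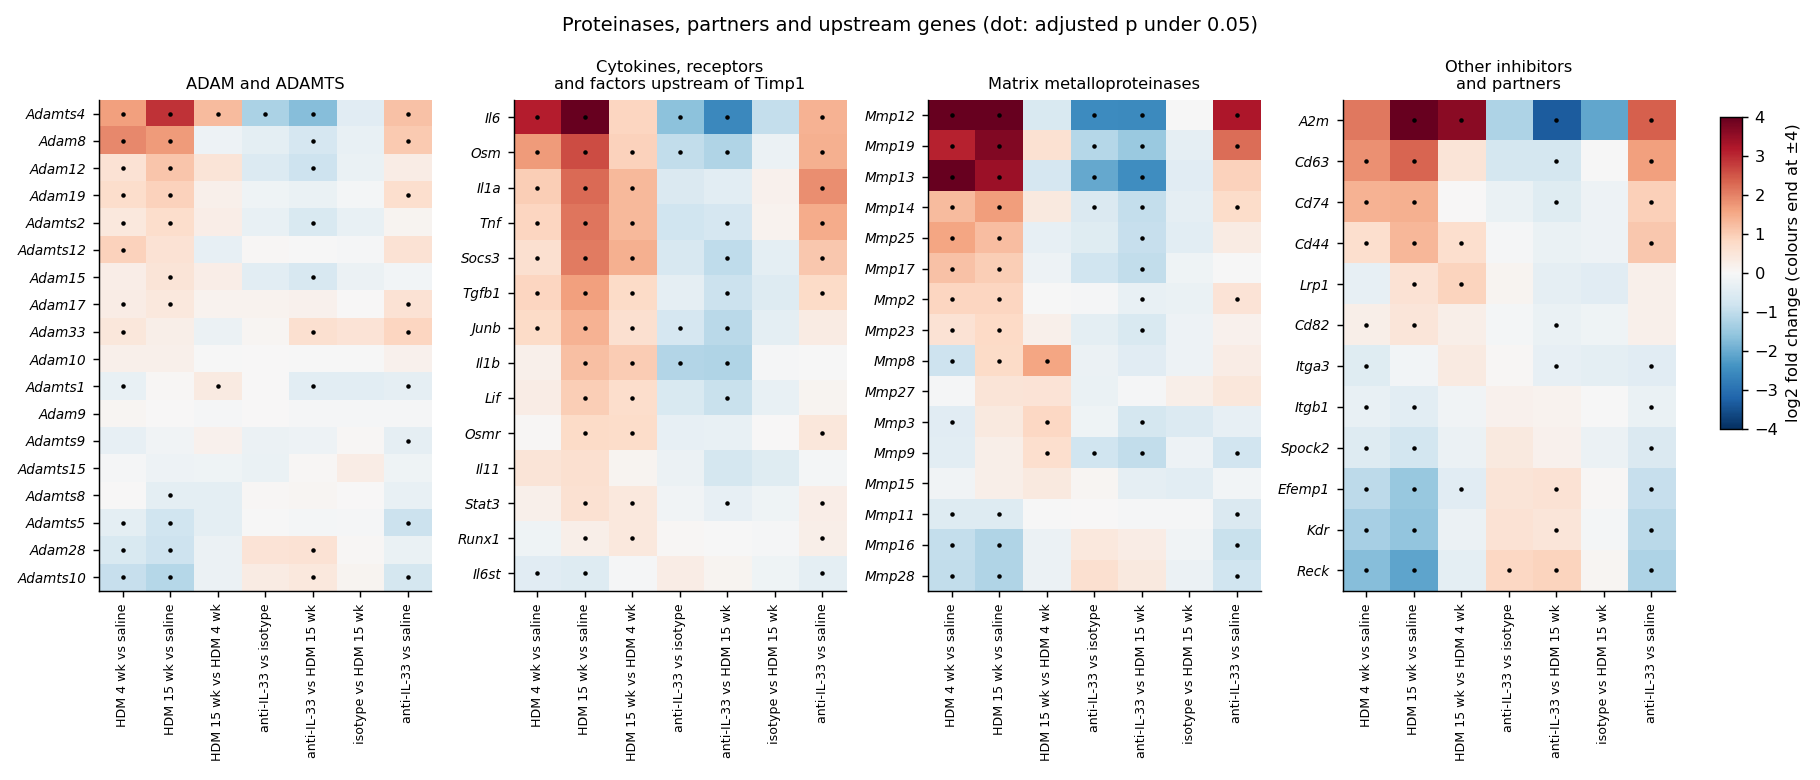
Fitted log2 fold changes of the tested target, partner and inducer genes (one per line) in the comparisons (columns), with colours that end at 4 in either direction and a black dot where the edgeR adjusted p was under 0.05. Mmp12, Mmp13 and Mmp19 are strongly higher in HDM against saline and lower under anti-IL-33 against isotype, and Reck goes the other way. The lower calls against isotype are fewer when 1 isotype library is left out.

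Among 12 other inhibitors and binding partners, 4 rose and 6 fell at 4 weeks against saline, which is 33.3% and 50%, against 29.3% and 27.5% of all genes. At 15 weeks 6 rose and 5 fell, which is 50% and 41.7%, against 31.2% and 28.1% of all genes. Reck, the other anchored inhibitor, had 36.2 ± 13 CPM under anti-IL-33, 20.5 ± 5.6 CPM under isotype, 19.4 ± 5.39 CPM at 15 weeks, 26 ± 7.12 CPM at 4 weeks and 85.4 ± 13.8 CPM after saline (SD). Its differences from saline were -1.71 ± 0.20 at 4 weeks and -2.12 ± 0.23 at 15 weeks, both called, and it was the 1 gene of the list that rose under anti-IL-33 against isotype, by 0.81 ± 0.25 (edgeR adjusted p = 0.042). This call was lost without isotype replicate 1, 3 or 4. Efemp1, a matrix protein that binds Timp3, fell too, with -1.04 ± 0.16 and -1.50 ± 0.18 against saline. So did Kdr, the VEGF receptor that Timp3 can block, with -1.33 ± 0.20 and -1.57 ± 0.23. Kdr is also among the endothelial markers counted above. Lrp1, another gene of the list, did not follow Timp3 at both times. It averaged 460 ± 99.4 CPM at 4 weeks, 830 ± 340 CPM at 15 weeks and 585 ± 115 CPM after saline (SD). Cd63 rose by 1.82 ± 0.25 at 4 weeks and by 2.32 ± 0.27 at 15 weeks. Its difference under anti-IL-33 against isotype was -0.69 ± 0.26 (adjusted p = 0.0804).

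Of 15 genes listed as inducing Timp1, carrying that signal or responding to it, 14 were tested. At 4 weeks 7 rose and 1 fell against saline, and 50% higher stands against 29.3% of all genes. At 15 weeks 12 rose and 1 fell, and 85.7% higher stands against 31.2%. Il6st, a receptor gene of the list, went the other way. It averaged 371 ± 85.9 CPM at 4 weeks, 353 ± 56.3 CPM at 15 weeks and 516 ± 31.1 CPM after saline (SD). At 15 weeks against 4 weeks 11 of the 14 were higher and none lower, and 78.6% stands against 12.3%. Il6 rose by 3.14 ± 0.47 at 4 weeks and by 3.98 ± 0.50 at 15 weeks, and Osm, oncostatin M, by 1.71 ± 0.27 and 2.62 ± 0.30. Under anti-IL-33 4 fell against isotype, 28.6% against 3.14% of all genes, namely Il1b (-1.18 ± 0.25), Il6 (-1.64 ± 0.44), Osm (-0.98 ± 0.27) and Junb (-0.67 ± 0.21). Without isotype replicate 1 the list had 1 gene called lower, without replicate 3 it had 0, and within number ranges 1 and 2 it had 1 and 0. Il6 averaged 0.923 ± 0.756 CPM under anti-IL-33 and 2.6 ± 0.716 CPM under isotype. It averaged 3.12 ± 1.32 CPM at 4 weeks, 5.09 ± 3.39 CPM at 15 weeks and 0.355 ± 0.184 CPM after saline (SD). Its rise against saline was thus measured from a very low level. The list's median log2 change was 0.59, 1.30 and -0.60 in the comparisons of 4 weeks with saline, 15 weeks with saline and anti-IL-33 with isotype.

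The synapsin genes around the members were checked because reads of a gene and its antisense partner are kept apart only if the counting used strand, which the sources used here do not give. Syn3, which shares exonic bases with Timp3, had a mean between 4.09 and 5.94 CPM in all groups, far under the level of Timp3. It differed from saline by -0.33 ± 0.15 at 4 weeks and by 0.23 ± 0.17 at 15 weeks (edgeR adjusted p = 0.0567 and 0.234). Syn2, around Timp4, averaged 14.1 CPM under anti-IL-33, 17.4 CPM at 15 weeks and 11.2 CPM after saline, above the level of Timp4. It rose by 0.54 ± 0.14 at 4 weeks and by 0.70 ± 0.15 at 15 weeks (adjusted p = 0.00111 and 0.000175), while Timp4 was not called. Counts of Timp4 are uncertain for this reason as well as for their size. Syn1 averaged between 1.69 and 3.12 CPM, under the level of Timp1 in every group.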

How the data were processed

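RNA of 43 lungs was sequenced from libraries made with a strand-specific mRNA kit, per the labels' protocols. The values deposited by the authors are whole-number counts for each Entrez identifier, not normalized. The build GRCm38 is per the submitters' processing notes, and no aligner or counter is named in those sources. Of 24475 identifiers 24375 matched a symbol, and the other 100 held 2.62% of counts. Counts were tested in 1 fit of all libraries with edgeR 4.0.16 in R 4.3.3 (TMM scaling, filterByExpr, robust quasi-likelihood test, terms for group and sample number range). P-values were adjusted by Benjamini-Hochberg over 15598 genes. The steps were tested on simulated data. CPM are per TMM-scaled library, and 0.5 was added before taking logs. Exon lengths are from GENCODE M21, with the exons of all transcripts of a gene merged. No pair of libraries held identical values. Correlation p-values used 100000 permutations, or all of them for groups under 10.

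Alternatives were DESeq2 1.42.0 and its size factors, limma-voom (limma 3.58.1), no low-count filter, no range term, each range alone, only the 2 groups compared, and leaving out libraries. Named partner genes are up to 4 per list and comparison with the smallest p, besides the members, the overlapping genes and the 5 most alike genes. Efemp1 and Kdr are also named where their place in that order was lower, for their known part with Timp3, a choice made after their values were seen. Il6st is named because it averaged lower than after saline, also a choice made after its values were seen. The members and lists were chosen with earlier results of these data known. Replicate numbers are only accession order.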

Additional observations from a re-analysis of the deposited data

Results flagged for a closer look

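Each of the 4 members was checked for a library far from the others in each group of 4 to 10 libraries. Of these 16 sets of 1 member in 1 group, 2 had such a library. The anti-IL-33 group, which is larger, was not checked. Timp1 stood at 240 CPM in replicate 4 of 15 weeks of HDM, where the other 6 libraries had between 29.2 and 108 CPM. Timp2 stood at 744 CPM in replicate 1 of the same group, where the other 6 had between 331 and 468 CPM. For normally spread values chance gives about 1 such set in 20. The check used CPM without logs, so this rate is only approximate here.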

How the results depend on the processing

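Over the member results and their alternatives, 242 values kept direction and call, 18 lost a call, 1 gained one and 23 changed sign. Every sign change concerned a difference that was not called in any setting where its sign turned. No direction of Timp1 changed, nor of Timp2 or Timp3 in comparisons with saline. A number range holds fewer libraries than the whole, and the causes of these changes were not tested.

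Of the 18 calls lost, 4 were lost with 1 isotype library left out, all for anti-IL-33 against isotype, Timp1 without replicate 3 and Timp3 without replicate 1, 3 or 4. The others were these, on the log2 scale. In number range 1 alone Timp2 gave -0.349 at 4 weeks, -0.217 at 15 weeks and -0.436 under anti-IL-33, each against saline, and Timp1 gave 0.731 for anti-IL-33 against saline. Timp3 for anti-IL-33 against isotype gave 0.564 there, 0.437 in range 2, 0.515 with no filter and 0.525 with 2 groups alone. In range 2 alone anti-IL-33 gave -0.441 for Timp1 against isotype, and -1.19 for Timp1 and 0.37 for Timp3 against 15 weeks. Timp2 for 15 weeks against saline gave -0.265 with no filter and -0.347 with 2 groups alone, and limma-voom gave 1.29 for Timp1 under anti-IL-33 against saline. The call gained was Timp1 for 15 against 4 weeks, 1.41 without replicate 1 of 15 weeks and replicate 3 of 4 weeks.

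Sign changes were mostly of Timp4. For 4 weeks against saline it gave 0.00294 with no filter and 0.457 in range 1. For 15 weeks against saline it gave -0.113 with no range term, -0.341 in range 2, -0.0193 with 2 groups alone and -0.143 without the 2 libraries. For 15 against 4 weeks it gave -0.0352 with no range term, -0.0647 in range 1, -0.109 in range 2, -0.0837 with 2 groups alone and -0.0923 without the 2 libraries. For anti-IL-33 it gave 0.0586 with no range term and 0.204 in range 2 against isotype, and -0.305 in range 1 against 15 weeks. Timp2 gave 0.0039 with no filter and 0.133 in range 1 for 15 against 4 weeks, and 0.0584 in range 2 and 0.0402 without the 2 libraries for anti-IL-33 against 15 weeks.

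Leaving out 1 isotype library at a time, anti-IL-33 against isotype ranged over -2.65 to -1.96 for Timp1, 0.16 to 0.236 for Timp2, 0.469 to 0.616 for Timp3 and -0.231 to 0.0953 for Timp4. Isotype against 15 weeks ranged over -0.677 to -0.0361 for Timp1, -0.373 to -0.296 for Timp2, -0.143 to 0.00349 for Timp3 and -0.00874 to 0.329 for Timp4.

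Genes called over all tested genes moved more. Anti-IL-33 against isotype called 1047 genes, 297 in range 1, 1 in range 2, 687 with no filter, 1704 with DESeq2, 4153 with 2 groups alone, 4639 without the 2 libraries and between 58 and 935 with 1 isotype library left out. Anti-IL-33 against 15 weeks called 5588 genes, 3560 in range 1 and 4 in range 2. Against saline, range 1 alone called 2308 genes at 4 weeks (8864 in all libraries), 4194 at 15 weeks (9235) and 578 under anti-IL-33 (6015). The comparison of 15 with 4 weeks called 3334 genes, 1406 in range 1, 149 in range 2 and 1206 with 2 groups alone. Isotype against 15 weeks called 0 in the main edgeR fit and at most 11 in any setting, the 11 being from edgeR without isotype replicate 1. Without division by exon length the Timp1 share was 8.87% under isotype, 8.1% at 15 weeks and 3.58% at 4 weeks, and the Timp3 share was 58.4% under anti-IL-33, 49.2% under isotype, 46% at 15 weeks, 50.3% at 4 weeks and 64.9% after saline. No paired analysis was possible because the labels give no pairing and replicate numbers are only accession order. Depth limits Timp4, which had between 6 and 31 counts per library.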
